A study of Mus musculus with 24 samples.

Results

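The NF-kB subunits and their feedback genes were followed across the treatments: the transcripts of the 5 subunits, Rela, Nfkb1, Rel, Nfkb2 and Relb, and of 5 regulators that NF-kB itself induces, Nfkbia, Nfkbie, Bcl3, Tnfaip3 and Birc3. They were chosen by gene symbol from the 25229 genes of the count table, and all 10 passed the filter on low counts, as did 12941 genes in all. RNA was measured in 24 libraries of ID8 Trp53-/- cells, labelled ID8 P53 KO, an established mouse ovarian cancer line grown in culture, so that every group carried the same p53 knockout. The cells received the vehicle DMSO, cisplatin at 750 nM, AU-15330 at 2.5 uM, or both drugs (the combination), with day 6 given for every library. Each of the 4 groups held 6 replicates. Cisplatin is a DNA cross-linking drug that can drive tumor cells into senescence, and AU-15330 is a PROTAC that recruits an E3 ligase to the SWI/SNF ATPases SMARCA4 and SMARCA2. No label says whether replicates were separate cultures, so the p-values measure the spread between these libraries, which may be technical, and the cells are a single line of a single genotype.

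NF-kB dimers are held in the cytoplasm by inhibitors of the IkB family. In the canonical branch, the IKK complex marks IkB for destruction and releases RELA or REL with p50, the product of Nfkb1. In the noncanonical branch, the kinase NIK (Map3k14) drives the processing of the Nfkb2 product to p52, the partner of RELB. The released dimers induce the genes of several of their own subunits and inhibitors, which makes the pathway self-limiting, and in senescent cells NF-kB is known as a driver of the secretory phenotype.

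The library totals ran from 17592588 to 25260009 counts, and levels are given as CPM, read counts scaled to the size of the library with TMM adjustment, where 3 counts corresponded to 0.120 to 0.186 CPM. All 10 markers of ovarian surface epithelium and mesothelium were tested, with summed levels of 3663 to 5457 CPM with DMSO, 4474 to 5135 with cisplatin, 1255 to 1382 with AU-15330 and 1389 to 1572 with the combination. Krt19 reached 2518 CPM in a library, while Krt7 did not exceed 5.16 and Cdh1 3.66. With AU-15330 9 of these markers were called lower and 1 higher than with DMSO, where 37.2% of all tested genes were called lower and 36.2% higher. None of 8 leukocyte markers passed the low-count filter, and their sum did not exceed 0.495 CPM in any library. Of 4 endothelial markers, only Pecam1 exceeded 1 CPM, and the sum of the list was 2.87 to 4.28 CPM with DMSO, 8.51 to 12.8 with cisplatin, 0.261 to 0.763 with AU-15330 and 0.483 to 1.20 with the combination. Of 4 fibroblast markers, Dcn, Lum and Pdgfra exceeded 1 CPM, and the list summed to 19.2 to 41.7 CPM with DMSO, 146 to 224 with cisplatin, 44.9 to 69.8 with AU-15330 and 48.4 to 81.1 with the combination. These sums moved with the treatments, and their part in the results was not tested. In bulk RNA, fewer cells of a type and less RNA per cell cannot be told apart.

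Because several of these genes are textbook targets of NF-kB, their promoters were searched for its binding motif. RefSeq promoter windows (GRCm38.p6, 250 bases before to 50 bases after a start site) were present for 8 of the 10 genes, all but Nfkb1 and Relb, and gave 11 windows. The kB consensus decamer was found on either strand in 6 of the 8 genes and in 8 of the 11 windows (72.7%), against 8.46% of all 32851 promoter windows. Nfkb2, Rel, Nfkbia, Nfkbie, Tnfaip3 and Bcl3 held it, and Rela and Birc3 did not. A looser form, GGGNNNNNCC, which is also met by every decamer match in these windows, was present in all 8 genes and in 50.8% of all windows. The AP-1 motif TGANTCA lay in windows of Nfkb2, Nfkbie and Tnfaip3 and in 7.81% of all windows, and the interferon-response core GAAANNGAAA lay in none of the 8 genes and in 3.44% of all windows. A match describes the letters of the window and is no measurement of binding.

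The sequences that follow, from RefSeq, show where the decamer sits, with the decamer in capitals. The upstream 250 bases are given for both IkB genes, which had the widest changes among the 10 genes with AU-15330 and with cisplatin, and a window of 30 bases around the match for the others. The Nfkbia sequence covers chr12:55492648-55492897 on the minus strand, the Nfkbie sequence chr17:45555450-45555699 on the plus strand, and both end 1 base before the start site. The Nfkb2 windows cover chr19:46304689-46304718 and chr19:46304716-46304745 (first start site) and, for the further starts, chr19:46305449-46305478 and chr19:46305695-46305724, on the plus strand. All 250 bases upstream of the first Nfkb2 start, and 234 of those upstream of its last, lie in annotated exons of the gene. So do 110 of those upstream of the first Tnfaip3 start. The Rel window covers chr11:23771041-23771070, the Tnfaip3 windows chr10:19015516-19015545 and chr10:19015403-19015432, and the Bcl3 window chr7:19822734-19822763, all on the minus strand. Runs of 11 capitals in Nfkb2 and Rel are overlapping matches.
Nfkbia: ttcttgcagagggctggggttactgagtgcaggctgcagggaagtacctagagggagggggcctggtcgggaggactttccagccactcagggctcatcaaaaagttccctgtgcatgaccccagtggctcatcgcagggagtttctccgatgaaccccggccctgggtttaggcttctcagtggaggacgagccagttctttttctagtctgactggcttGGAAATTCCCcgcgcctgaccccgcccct
Nfkbie: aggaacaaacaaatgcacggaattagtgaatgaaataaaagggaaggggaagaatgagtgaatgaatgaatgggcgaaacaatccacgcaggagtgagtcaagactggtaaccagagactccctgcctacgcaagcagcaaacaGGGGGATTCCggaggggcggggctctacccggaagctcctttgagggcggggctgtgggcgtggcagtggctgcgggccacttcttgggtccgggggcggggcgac
Nfkb2, window at the first start: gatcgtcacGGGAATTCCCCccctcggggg
Nfkb2, next window: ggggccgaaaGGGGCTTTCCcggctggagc
Nfkb2, distal window of the second start: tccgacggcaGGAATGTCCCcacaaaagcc
Nfkb2, window shared by the further starts: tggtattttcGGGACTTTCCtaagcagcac
Rel: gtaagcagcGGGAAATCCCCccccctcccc
Tnfaip3, distal window: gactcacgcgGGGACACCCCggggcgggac
Tnfaip3, proximal window: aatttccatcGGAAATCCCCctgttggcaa
Bcl3: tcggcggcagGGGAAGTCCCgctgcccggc

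**Figure D1:**
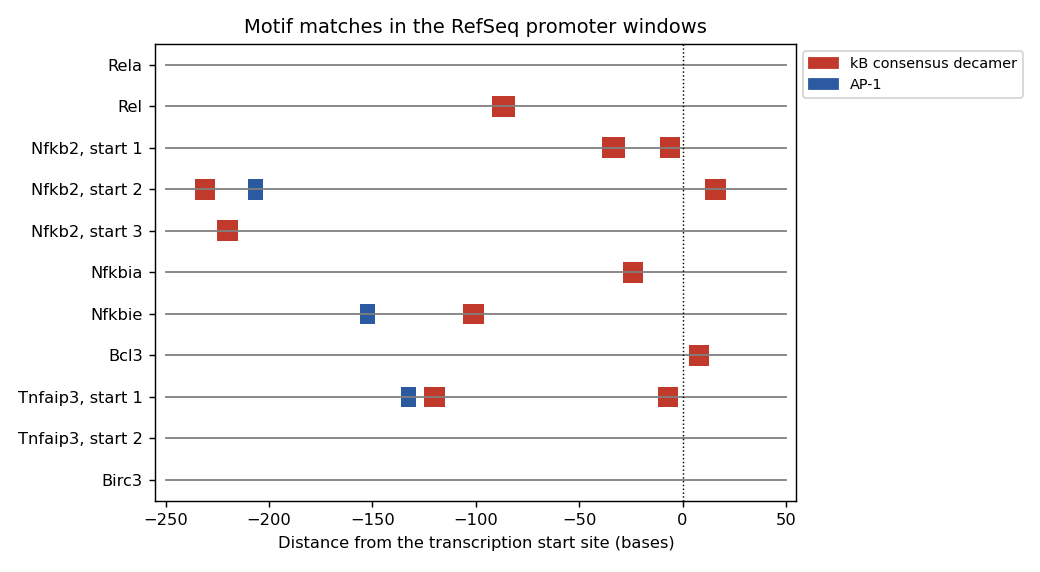
Matches of the kB consensus decamer (red) and of AP-1 (blue) in the 11 RefSeq promoter windows of 8 genes, by distance from the transcription start site in bases; genes with several annotated starts have a line for each. The decamer lies within 40 bases of a start in Nfkb2, Nfkbia, Tnfaip3 and Bcl3, and no line of Rela or Birc3 carries a match.

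To compare the treatments, all tested genes were fitted together and a gene was called at an adjusted p under 0.05 (edgeR, quasi-likelihood F test). Cisplatin raised 8 of the 10 genes over DMSO and lowered 0, with Nfkb1 and Rela not called, and 0 were lower at an unadjusted p under 0.05 or by DESeq2. Across all tested genes 26% were called higher and 25.7% lower in that comparison, and the median log2 change was 0.46 for the 10 genes and -0.00 for all genes. With AU-15330, 7 genes rose and 2 fell (Tnfaip3 and Rel), with Rela not called, against 36.2% of all genes called higher and 37.2% lower. These comparisons use the same DMSO libraries. The median of the 10 genes was 0.44 on the log2 scale, and that of all genes -0.00.

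Adding AU-15330 to cisplatin raised 6 of the 10 genes and lowered 2, again Tnfaip3 and Rel, where 35.4% of all genes were called higher and 32.7% lower. The median log2 change was 0.31 for the 10 genes and 0.04 for all genes. Adding cisplatin to AU-15330 raised 5 genes and lowered Nfkbia alone, against 22.2% of all genes called higher and 19.5% lower. The combination differed from DMSO in all 10 genes, with 8 higher and 2 lower, where 36.8% of all genes were called higher and 36.5% lower. The calls of Rel, Rela and Tnfaip3 in that last comparison depended on single libraries, as given with each gene.

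**Figure D2:**
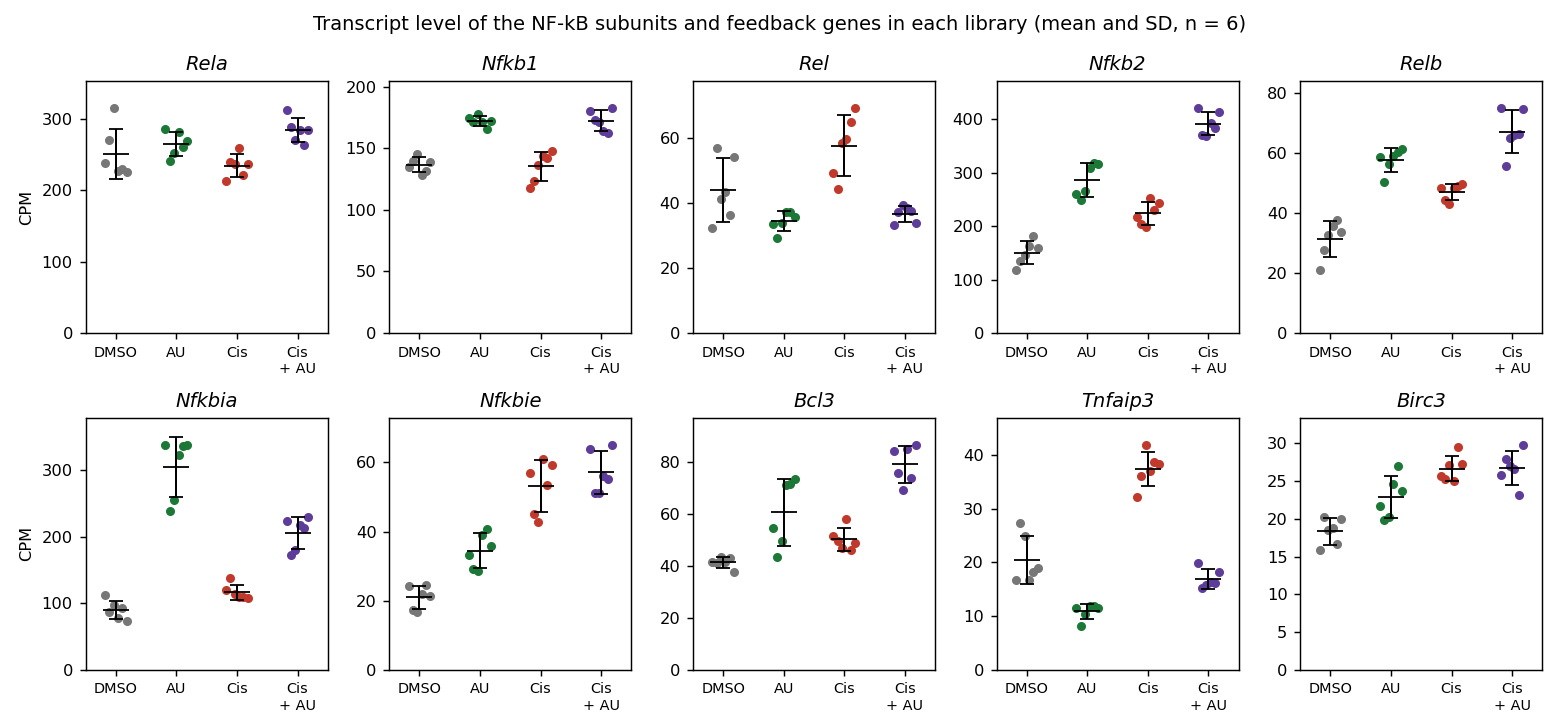
Level of each gene in CPM (vertical axis from 0) in each library by treatment (AU, AU-15330; Cis, cisplatin), with the mean and SD of 6 libraries as bars. Nfkbia stands at 239 to 338 CPM with AU-15330 and at 73.9 to 112 with DMSO, while Tnfaip3 is lowest with AU-15330 and highest with cisplatin.

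Rela encodes the main transactivating subunit and gave the highest subunit level per kilobase of exon in every group, 81.7 ± 11.5 CPM per kb with DMSO (SD, n = 6). It is encoded at chr19:5637483-5648130 on the plus strand (GRCm38). Its libraries ran from 226 to 315 CPM (median 234) under DMSO, 213 to 259.5 (median 237) under cisplatin, 241 to 285 (median 264) under AU-15330 and 263 to 312 (median 284) under the combination. The combination lay above cisplatin in every library, and all other pairs of groups overlapped. Rela did not pass the test with cisplatin (log2 change -0.10, 95% interval -0.26 to 0.06) or with AU-15330 (0.08, -0.08 to 0.24). Both values rested on DMSO replicate 3, the highest DMSO library: without it the cisplatin value was -0.000509, and the AU-15330 value was 0.16 with an adjusted p of 0.0309. The AU-15330 value was 0.21 (adjusted p = 0.00911) with scaling by total counts. In cells with cisplatin, AU-15330 raised Rela by 0.28 on the log2 scale (SE 0.08, adjusted p = 0.00223). Without the libraries numbered 1 in all groups it was 0.18 (adjusted p = 0.0568).

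The combination exceeded DMSO for Rela by only 0.18 (SE 0.08, adjusted p = 0.0365). The call was lost without DMSO replicate 1, 4, 5 or 6, combination replicate 1, 2, 4 or 6 or AU-15330 replicate 5, with values of 0.14 to 0.17 and adjusted p-values from 0.0509 to 0.102, by DESeq2 (0.16, adjusted p = 0.069), with its size factors in edgeR (0.16, adjusted p = 0.0669) and with only the groups compared (0.18, adjusted p = 0.0843). Without the libraries numbered 1 the value was 0.08 (adjusted p = 0.395), and with no filter on low counts 0.12 (adjusted p = 0.212).

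Nfkb1, which encodes the p105 precursor of p50, separated the libraries by AU-15330 and not by cisplatin. From this gene, at chr3:135584655-135691547 on the minus strand, the level was 129 to 146 CPM (median 137) under DMSO and 118 to 148 (median 139) under cisplatin. It was 165 to 177 (median 172) under AU-15330 and 163 to 183 (median 172) under the combination. The libraries with AU-15330 thus all lay above those without it. Nfkb1 rose by 0.33 with AU-15330 alone (SE 0.06, adjusted p = 9.46e-06) and by 0.35 when AU-15330 was added to cisplatin (SE 0.06, adjusted p = 5.49e-06), or 1.26-fold and 1.27-fold. The change with cisplatin was -0.01 (-0.13 to 0.11), and that of the combination over AU-15330 was 0.00 (-0.12 to 0.12). Cisplatin lay below the same-numbered DMSO library in replicates 1 to 3 (118 to 136 against 135 to 146 CPM). It lay above in replicates 4 to 6 (142 to 148 against 129 to 139 CPM).

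Rel, the c-Rel subunit, moved the other way. Rel lies at chr11:23736847-23770970 on the minus strand. It was at 32.2 to 57.1 CPM (median 42.3) under DMSO, 44.4 to 69.3 (median 59.1) under cisplatin, 29.1 to 37.4 (median 34.8) under AU-15330 and 33.1 to 39.5 (median 37.5) under the combination. The DMSO libraries overlapped every other group, and the cisplatin libraries lay above all those with AU-15330. Rel rose 1.31-fold with cisplatin (log2 0.39, SE 0.12, adjusted p = 0.00776) and fell with AU-15330 (log2 -0.36, SE 0.12, adjusted p = 0.00924), although the groups overlapped. Scaling by total counts ended the second call (-0.23, adjusted p = 0.0772). The clearest change in Rel was the drop from cisplatin to the combination, by 0.65 on the log2 scale (SE 0.12, adjusted p = 2.44e-05, with no overlap of the groups).

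Against DMSO the combination gave -0.27 for Rel (SE 0.12, adjusted p = 0.045). This call was lost without DMSO replicate 2, 4 or 6 or combination replicate 1, 2, 5 or 6, with values of -0.28 to -0.17 and adjusted p-values from 0.0504 to 0.156, and with total counts it was -0.13 (adjusted p = 0.323), with the second lane alone -0.25 (adjusted p = 0.0788) and with only the groups compared -0.26 (adjusted p = 0.0682). The combination and AU-15330 alone differed by 0.09 (-0.16 to 0.34).

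Nfkb2 encodes p100, the precursor of p52 and itself an inhibitor of RELB dimers, and rose with each drug and again with both. The gene lies at chr19:46304320-46312385 on the plus strand, with the decamer in the window of each of its start sites. It ran from 119 to 181 CPM (median 153) under DMSO, 199 to 254 (median 224) under cisplatin, 249 to 319 (median 288) under AU-15330 and 370 to 421.5 (median 388) under the combination. Only the cisplatin and AU-15330 ranges overlapped. Within the DMSO, cisplatin and AU-15330 groups, Nfkb2 in replicates 1 to 3 lay below that in replicates 4 to 6. The same held for Rel, Relb, Nfkbie, Tnfaip3, Bcl3 and Birc3 with AU-15330, for Nfkb1 and Rel with cisplatin, and for Relb with DMSO. The order was reversed for Rela with DMSO and for Nfkbia with cisplatin, and its cause was not tested. Each Nfkb2 and Bcl3 call between groups held with the replicate number as a block. Cisplatin raised Nfkb2 1.49-fold (log2 0.58, SE 0.09, adjusted p = 6.17e-06) and AU-15330 1.91-fold (log2 0.93, SE 0.09, adjusted p = 6.66e-10). The combination stood 2.60-fold above DMSO (log2 1.38, SE 0.09, adjusted p = 3.18e-13), 1.75-fold above cisplatin (adjusted p = 1.13e-08) and 1.37-fold above AU-15330 (adjusted p = 0.000212). The interaction, which asks whether the drugs together changed a gene by other than the sum of their separate log2 changes, was -0.13 (-0.39 to 0.13) and did not pass.

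Relb, whose protein pairs with p52, followed the same order of group means. Relb lies at chr7:19606217-19629438 on the minus strand. Its level was 21.1 to 37.8 CPM (median 33.0) under DMSO, 43.1 to 49.6 (median 48.2) under cisplatin, 50.3 to 61.2 (median 58.7) under AU-15330 and 55.7 to 74.9 (median 66.1) under the combination. Only the last pair of groups overlapped. Relb rose with cisplatin (log2 0.59, SE 0.10, adjusted p = 2.5e-05) and, 1.84-fold, with AU-15330 (log2 0.88, SE 0.10, adjusted p = 1.69e-08). The combination was 2.14-fold above DMSO (adjusted p = 2.73e-10) and 1.42-fold above cisplatin (adjusted p = 5.85e-05).

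Relb in the combination exceeded AU-15330 by 0.22 (0.01 to 0.42) and was higher in 6 of 6 pairs, but did not pass (adjusted p = 0.0758). It passed with the replicate number as a block (adjusted p = 0.0412), in a comparison where the same-numbered libraries deviated together, when only the groups compared were fitted (adjusted p = 0.0161), and without DMSO replicate 1 (0.22, adjusted p = 0.0209) or combination replicate 2 (0.27, adjusted p = 0.0368).

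**Figure D3:**
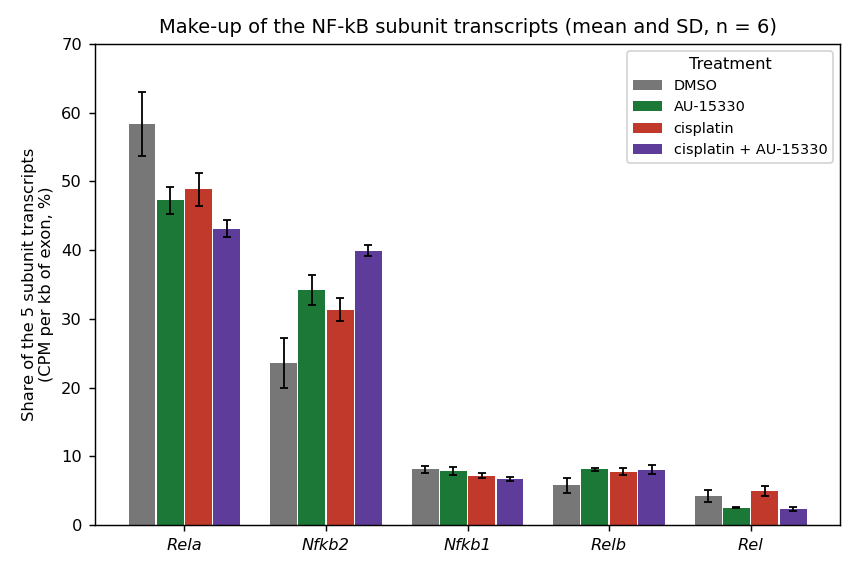
Share of each subunit in the summed level of the 5 subunits (percent, vertical axis from 0) by treatment. Bars give the mean and SD of 6 libraries. Levels are CPM per kilobase of exon, with all annotated exons of a gene counted together. The Rela share goes from 58.3% with DMSO to 43.1% with the combination, and the Nfkb2 share from 23.6% to 39.9%.

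Divided by exon length, the share of Nfkb2 among the subunit transcripts was higher, and that of Rela lower, in each treated group than with DMSO. Shares of a fixed total fall when other members rise, and the Rela level itself was 81.7 CPM per kb with DMSO, 76.3 with cisplatin, 86.2 with AU-15330 and 92.5 with the combination. Rela made up 58.3% ± 4.67 (SD, n = 6) of the 5 subunits with DMSO, 48.8% ± 2.36 with cisplatin, 47.3% ± 1.96 with AU-15330 and 43.1% ± 1.26 with the combination. Nfkb2 made up 23.6% ± 3.58, 31.3% ± 1.66, 34.3% ± 2.18 and 39.9% ± 0.815 in the same order. Relb contributed 5.76% with DMSO and 7.75% to 8.11% in the treated groups, and Rel 4.23% with DMSO, 4.93% with cisplatin, 2.53% with AU-15330 and 2.30% with the combination. The Nfkb1 share was 6.67% to 8.12%. Exon lengths were those of GENCODE vM21, and the annotation used for counting is not given in the sources used here.

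Within a library, the ratio of Nfkb2 to Nfkb1 counts was 0.882 to 1.38 with DMSO, 1.46 to 1.85 with cisplatin, 1.45 to 1.93 with AU-15330 and 2.14 to 2.40 with the combination. Only the single-drug groups overlapped. The ratio of Relb to Rela was 0.0885 to 0.164 with DMSO and 0.182 to 0.262 over the other groups, which overlapped one another. These ratios were chosen after the values were seen and are given as a description.

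**Figure D4:**
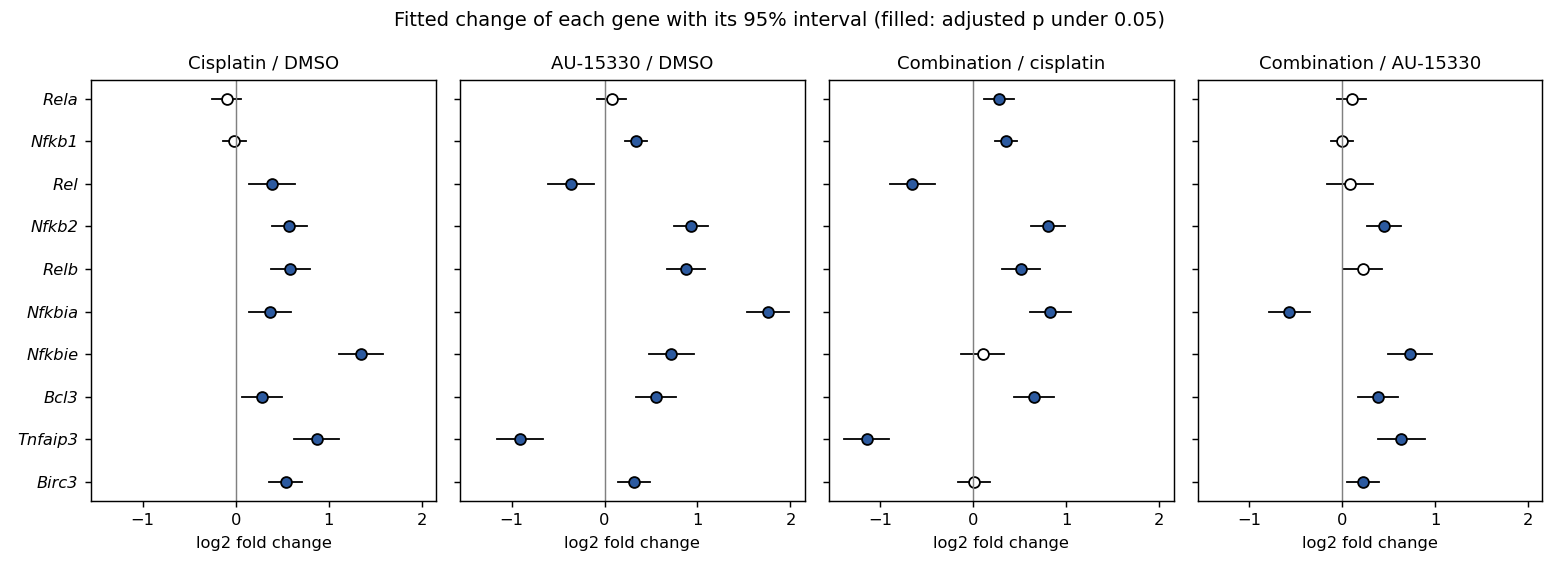
Fitted log2 fold change of each gene (points) with its 95% interval (lines) in 4 comparisons; filled points have an adjusted p under 0.05. Nfkbia lies at 1.76 with AU-15330 over DMSO, and Tnfaip3 changes from 0.87 with cisplatin over DMSO to -1.15 for the combination over cisplatin.

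Nfkbia encodes IkB-alpha, the inhibitor resynthesized most rapidly after NF-kB activation, and had the largest change with AU-15330 among the 10 genes. The gene lies at chr12:55489410-55492647 on the minus strand, and its decamer sits at bases -29 to -20 from the start in the sequence above. It was at 73.9 to 112 CPM (median 89.3) under DMSO, 108 to 137 (median 112) under cisplatin, 239 to 338 (median 330) under AU-15330 and 173 to 229 (median 215) under the combination. The groups were separate except for DMSO and cisplatin, and AU-15330 replicates 2 and 3 lay below the other 4 of their group. AU-15330 raised Nfkbia 3.39-fold (log2 1.76, SE 0.11, adjusted p = 8.75e-14), and cisplatin 1.29-fold (log2 0.37, SE 0.11, adjusted p = 0.00513). In the combination it was 1.77-fold above cisplatin (adjusted p = 1.45e-07) but fell by 0.57 on the log2 scale from AU-15330 alone (SE 0.11, adjusted p = 0.000111, lower in 6 of 6 pairs).

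Nfkbie encodes IkB-epsilon, a slower and weaker feedback inhibitor, and had the largest change with cisplatin among the 10 genes. The gene lies at chr17:45555703-45563169 on the plus strand, and its window holds the decamer at bases -106 to -97 and an AP-1 match at bases -156 to -150. Its libraries gave 16.6 to 24.4 CPM (median 21.6) under DMSO, 42.9 to 60.9 (median 55.3) under cisplatin, 28.5 to 40.8 (median 34.6) under AU-15330 and 51.2 to 65.1 (median 55.6) under the combination. Cisplatin and the combination overlapped, and all other groups were separate. Nfkbie rose 2.54-fold with cisplatin (log2 1.34, SE 0.11, adjusted p = 3.3e-10) and 1.65-fold with AU-15330 (log2 0.72, SE 0.11, adjusted p = 3.5e-06). The combination exceeded AU-15330 by 0.73 (SE 0.11, adjusted p = 9.95e-06) and cisplatin by 0.10 (-0.13 to 0.33), which did not pass and ranged from 0.05 to 0.14 with 1 library left out. The IkB genes thus ranked the treatments differently: AU-15330 gave the highest mean for Nfkbia, and the combination followed by cisplatin for Nfkbie.

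Bcl3 encodes an atypical IkB protein that works in the nucleus with p50 and p52 homodimers. Bcl3 lies at chr7:19808462-19822770 on the minus strand. It was at 37.6 to 43.2 CPM (median 41.5) under DMSO, 46.1 to 58.1 (median 49.2) under cisplatin, 43.3 to 73.3 (median 62.7) under AU-15330 and 69.1 to 86.5 (median 80.0) under the combination. All treated libraries lay above all DMSO libraries, the AU-15330 range overlapped those of cisplatin and the combination, and AU-15330 replicates 1 to 3 (54.5, 43.3 and 49.6 CPM) lay below replicates 4 to 6 (70.9, 71.6 and 73.3 CPM). Bcl3 rose 1.47-fold with AU-15330 (log2 0.55, SE 0.10, adjusted p = 3.63e-05) and 1.91-fold with the combination (log2 0.94, SE 0.10, adjusted p = 9.69e-09). The combination exceeded cisplatin by 0.66 (SE 0.10, adjusted p = 3.55e-06) and AU-15330 by 0.38 (SE 0.10, adjusted p = 0.00394).

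With cisplatin alone Bcl3 rose 1.22-fold (log2 0.28, SE 0.10, adjusted p = 0.0259). This call was lost without cisplatin replicate 4 (0.23, adjusted p = 0.0761), without DMSO replicate 6 (0.25, adjusted p = 0.0568), without the libraries numbered 1 (0.26, adjusted p = 0.0741) and with no filter on low counts (0.26, adjusted p = 0.052).

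Tnfaip3 encodes A20, a ubiquitin-editing enzyme that ends signaling to IKK, and was the gene on which the drugs acted in opposite directions with non-overlapping groups. It lies at chr10:19000910-19015657 on the minus strand, with both decamers of the sequences above. Its level was 16.7 to 27.3 CPM (median 18.5) under DMSO, 32.2 to 41.9 (median 37.8) under cisplatin, 8.10 to 11.9 (median 11.5) under AU-15330 and 15.2 to 19.9 (median 16.2) under the combination. The combination overlapped DMSO, and every other pair of groups was separate. Cisplatin raised Tnfaip3 1.83-fold (log2 0.87, SE 0.12, adjusted p = 6.22e-07), and AU-15330 lowered it to 0.531 of DMSO (log2 -0.91, SE 0.12, adjusted p = 1.59e-07). In cisplatin-treated cells AU-15330 lowered it to 0.452 of cisplatin alone (log2 -1.15, SE 0.12, adjusted p = 2.16e-09). Adding cisplatin to AU-15330 raised it 1.56-fold (adjusted p = 0.000119).

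The combination gave -0.27 for Tnfaip3 against DMSO (SE 0.12, adjusted p = 0.0368), a call lost without DMSO replicate 2 or 3 or combination replicate 2, 3, 4 or 5 (-0.27 to -0.17, adjusted p-values from 0.0584 to 0.157). With total counts it was -0.13 (adjusted p = 0.287), with the first lane alone -0.24 (adjusted p = 0.128), with the replicate block -0.27 (adjusted p = 0.0532) and with only the groups compared -0.27 (adjusted p = 0.0782).

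Birc3 encodes cIAP2, a ubiquitin ligase of the TNF receptor complex that also holds NIK low. Birc3 lies at chr9:7848699-7873186 on the minus strand, and its window held no decamer. It was at 15.8 to 20.2 CPM (median 18.7) under DMSO, 25.0 to 29.5 (median 26.5) under cisplatin, 19.9 to 27.0 (median 22.7) under AU-15330 and 23.2 to 29.8 (median 26.8) under the combination. Libraries with cisplatin, alone or combined, lay above those with DMSO, and the 3 treated groups overlapped one another. Cisplatin raised Birc3 1.45-fold (log2 0.54, SE 0.08, adjusted p = 6.3e-06) and AU-15330 1.24-fold (log2 0.31, SE 0.08, adjusted p = 0.00149, with overlapping groups). The combination did not differ detectably from cisplatin (0.01, -0.17 to 0.18).

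Against AU-15330 the combination was higher for Birc3 by 0.23 (SE 0.08, adjusted p = 0.0286), a call lost without AU-15330 replicate 1, 2 or 3, combination replicate 2 or 6, or the libraries numbered 1 (0.18 to 0.21, adjusted p-values from 0.0565 to 0.0902), with the second lane alone (0.21, adjusted p = 0.104) and with no filter on low counts (0.19, adjusted p = 0.104).

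**Figure D5:**
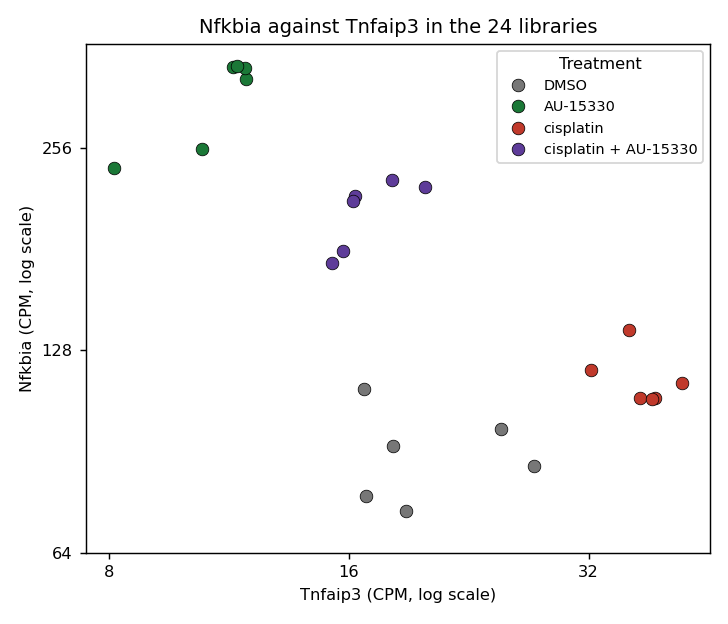
Nfkbia (vertical) against Tnfaip3 (horizontal), both in CPM on log scales, with a point for each of the 24 libraries, colored by treatment. The 6 AU-15330 libraries lie at the upper left and the 6 cisplatin libraries at the lower right, and the 4 treatments form separate groups.

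Nfkbia and Tnfaip3, both negative regulators with a decamer near the start, therefore moved in opposite directions with AU-15330. Their counts stood in a ratio of 3.16 to 6.71 (mean 4.57) with DMSO, 2.73 to 3.81 (mean 3.13) with cisplatin, 24.4 to 29.5 (mean 28.0) with AU-15330 and 11.2 to 13.3 (mean 12.2) with the combination. Every library with AU-15330 lay above every library without it, and the AU-15330 and combination groups were separate. This pair was also chosen after the values were seen, and its ratio is given as a description.

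The interaction of the drugs was called lower for 4 genes and higher for 0 (edgeR; likewise 0 at an unadjusted p under 0.05 and 0 by DESeq2), where 17.9% of all genes were called higher and 15.8% lower. For Nfkbia the combination differed from the sum of the single-drug log2 changes by -0.93 (SE 0.15, adjusted p = 3.02e-05), and for Nfkbie by -0.62 (SE 0.16, adjusted p = 0.00401). For Relb the difference was -0.37 (SE 0.14, adjusted p = 0.0462), and for Birc3 -0.31 (SE 0.12, adjusted p = 0.0419). The Relb call was lost without any 1 of 14 libraries, namely DMSO replicate 2, AU-15330 replicate 1, 3, 4, 5 or 6, cisplatin replicate 1, 4, 5 or 6 and combination replicate 2, 3, 4 or 5 (-0.37 to -0.31, adjusted p-values from 0.0567 to 0.086). The Birc3 call was lost without any 1 of 11, namely DMSO replicate 5, AU-15330 replicate 4, 5 or 6, cisplatin replicate 3, 5 or 6 and combination replicate 1, 3, 4 or 5 (-0.31 to -0.26, adjusted p-values from 0.0534 to 0.0818). Both calls were also lost with the second lane alone and with no filter on low counts, and that of Birc3 without the libraries numbered 1 (-0.31, adjusted p = 0.0539). Rel (-0.30), Tnfaip3 (-0.23), Nfkb2 (-0.13), Nfkb1 (0.02), Bcl3 (0.10) and Rela (0.20) did not pass, though Rel did without DMSO replicate 2 (-0.41, adjusted p = 0.041). These uncalled values moved with single libraries, over -0.35 to -0.18 for Tnfaip3, -0.18 to -0.09 for Nfkb2, 0.03 to 0.17 for Bcl3 and 0.10 to 0.23 for Rela.

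Of 16 other inhibitors and feedback regulators of the pathway, 15 were tested. With cisplatin 6 rose and 3 fell, and with AU-15330 6 rose and 6 fell, with median log2 changes of -0.03 and 0.02. Among all tested genes 26% were called higher and 25.7% lower with cisplatin, and 36.2% and 37.2% with AU-15330, so the AU-15330 counts of the list were near the background. Usp18, an interferon-induced regulator, had the smallest adjusted p of the list in both comparisons, with 0.634 ± 0.371 CPM under DMSO, 68.3 ± 12.5 under cisplatin (adjusted p = 2.95e-18), 51.6 ± 9.52 under AU-15330 (adjusted p = 7.8e-19) and 38.2 ± 2.68 under the combination. Tnip3, an A20-binding protein, was highest with cisplatin and lowest with AU-15330, as was Tnfaip3. Its mean was 8.68 CPM with DMSO, 30.1 with cisplatin, 2.78 with AU-15330 and 9.59 with the combination. It rose with cisplatin by 1.79 (adjusted p = 3.63e-09) and dropped by 1.65 from cisplatin to the combination (adjusted p = 4.01e-09). Tnip1, another A20 partner, fell with AU-15330 by 0.89 on the log2 scale (562 ± 29.6 to 304 ± 35.4 CPM, adjusted p = 4.81e-11), while Cyld, a deubiquitinase, rose by 0.78 (78.1 ± 8.26 to 134 ± 9.34 CPM, adjusted p = 7.06e-10). When AU-15330 was added to cisplatin, 4 of the 15 rose and 7 fell, against 35.4% and 32.7% of all genes.

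Among 31 kinases, adaptors and ubiquitin ligases upstream of NF-kB, 9 rose and 7 fell with cisplatin, 15 rose and 10 fell with AU-15330, and 13 rose and 9 fell between cisplatin and the combination. The shares of all genes called higher and lower were 26% and 25.7%, 36.2% and 37.2%, and 35.4% and 32.7% in these comparisons, so the counts with cisplatin and between cisplatin and the combination were near the background. Map3k14 (NIK) rose with cisplatin from 42.0 ± 3.34 to 74.2 ± 3.89 CPM (log2 0.82, adjusted p = 2.78e-08) and stood at 73.5 ± 7.31 in the combination. Traf1 rose from 0.286 to 5.13 CPM with cisplatin (adjusted p = 8.62e-10), and Traf2 from 40.5 to 69.8 (adjusted p = 2.35e-07). In the combination Traf1 was at 0.746 CPM (log2 -2.76 against cisplatin, adjusted p = 2.15e-08) and Traf2 at 37.8 (log2 -0.88, adjusted p = 1.06e-08). With cisplatin Irak1 fell from 272 ± 8.39 to 186 ± 14.3 CPM (log2 -0.55, adjusted p = 3.87e-08). With AU-15330, Irak2 fell (log2 -2.30, 37.4 ± 4.79 to 7.58 ± 0.571 CPM, adjusted p = 1.35e-18) and Irak1 (log2 -1.25, adjusted p = 8.73e-16), both kinases of the interleukin-1 and Toll-like receptor route. Btrc, the ligase adaptor that recognizes phosphorylated IkB, rose by 0.88 (adjusted p = 4.55e-13). Birc2, the paralog of Birc3 and a neighbour whose reads could in part be shared with it, went from 44.5 ± 3.25 CPM with cisplatin to 84.4 ± 6.06 with the combination (log2 0.92, adjusted p = 3.62e-11).

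Of 18 receptors 14 were tested. Cisplatin raised 8 and lowered 2, AU-15330 raised 7 and lowered 6, and adding AU-15330 to cisplatin raised 8 and lowered 6. All genes were called higher and lower at 26% and 25.7%, 36.2% and 37.2%, and 35.4% and 32.7%. Tlr2 rose with AU-15330 from 1.44 ± 0.397 to 32.6 ± 3.51 CPM (log2 4.51, adjusted p = 1.9e-19) and Tlr3 from 5.68 ± 1.47 to 110 ± 4.57 (log2 4.26, adjusted p = 7.81e-19). Tnfrsf1b, the second TNF receptor, fell from 151 ± 4.00 to 22.97 ± 2.15 CPM (log2 -2.71, adjusted p = 2.51e-19). Only 5 of 12 ligands were tested, of which 3 rose and 0 fell with cisplatin, 2 rose and 3 fell with AU-15330 (median log2 -1.15), and 2 rose and 2 fell between cisplatin and the combination. Tnfsf12 (TWEAK), a noncanonical pathway ligand, rose with AU-15330 from 11.96 ± 2.00 to 51.3 ± 4.74 CPM (log2 2.10, adjusted p = 1.56e-16), and Il33 rose with cisplatin from 0.791 ± 0.248 to 6.06 ± 1.04 CPM and fell back to 0.591 ± 0.182 with the combination.

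Textbook targets, 23 of 30 tested, rose in 14 cases and fell in 3 with cisplatin (median log2 0.62). AU-15330 raised 10 and lowered 9 (median 0.04), and against cisplatin the combination raised 9 and lowered 10 (median -0.32). Over all genes, the shares higher and lower were 26% and 25.7% with cisplatin, 36.2% and 37.2% with AU-15330 and 35.4% and 32.7% between cisplatin and the combination. Against AU-15330 the combination raised 14 targets and lowered 0 (median 1.03), where 22.2% of all genes were called higher and 19.5% lower. Against DMSO it raised 14 and lowered 6 (median 0.69), where 36.8% of all genes were called higher and 36.5% lower. Ccl5, a chemokine, was at 1.52 ± 0.329 CPM under DMSO, 30.1 ± 3.43 under cisplatin (adjusted p = 5.31e-15), 5.77 ± 1.37 under AU-15330 and 67.7 ± 21.1 under the combination. Vcam1, an adhesion molecule, was at 2.22 ± 0.655 CPM with DMSO, 34.8 ± 2.43 with cisplatin, 2.11 ± 0.641 with AU-15330 and 9.51 ± 3.03 with the combination. Icam1 fell from 54.1 ± 4.78 with cisplatin to 19.5 ± 3.63 with the combination (log2 -1.47, adjusted p = 1.95e-11), whereas Irf1, an interferon-pathway factor, rose from 158 ± 8.22 to 437 ± 46.9 (log2 1.47, adjusted p = 1.84e-12). Csf1, a macrophage growth factor, rose from 258 ± 43.8 to 713 ± 75.3 CPM (log2 1.46, adjusted p = 2.76e-11). Ptgs2, which makes prostaglandins, fell with AU-15330 from 826 ± 320.4 to 11.3 ± 1.82 CPM (log2 -6.19, adjusted p = 9.75e-17). The group means of Icam1 had the order of those of Tnfaip3, with AU-15330 lowest and cisplatin highest. The means of Csf1 had that of Nfkb2, with DMSO lowest and the combination highest. Some of these means lay close together, as Icam1 was at 20.4 ± 2.36 CPM and Csf1 at 235 ± 25.1 with DMSO. The orders were picked after the values were seen, and the share of all genes with either order was not counted.

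The genes with the most similar pattern were found by the root mean square difference of the 4 centred group means of log2 CPM, among 11753 genes. Nearest to Tnfaip3 was Inpp4b (0.03), nearest to Nfkbia was Psme1 (0.05), and nearest to Nfkbie was Dnmt1 (0.05). Nfkb2 was most like Cdk5rap2 (0.03), Relb most like Gm6712 (0.03), Bcl3 most like Dusp3 (0.03) and Rel most like Ccdc112 (0.03). The flatter patterns had closer neighbours, Rela with Terf2 (0.00), Nfkb1 with Cplane1 (0.01) and Birc3 with Rad21 (0.01). These distances rest on 4 group means each.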

How the data were processed

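Per the labels, poly(A) RNA was made into directional libraries. The authors aligned single-end reads (STAR 2.7.1a, mm10, per the submitters' notes) and deposited unnormalized counts of reads on 25229 genes, named by symbol. The program used for counting, its strand setting and annotation are not given in the sources used here, and the labels' cisplatin dose of 750 nM differs from the paper's. The 48 columns were 2 lanes of each of 24 libraries and were summed. With edgeR 4.0.16 (R 4.3.3), libraries were scaled by TMM, genes filtered with filterByExpr (12941 kept) and all 4 groups fitted together (20 residual degrees of freedom). Quasi-likelihood F tests were two-sided, and p-values were Benjamini-Hochberg adjusted over all tested genes, with a threshold of 0.05. The fit was tested on simulated data. Log CPM used a prior count of 2.

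Genes and lists were chosen with earlier results of these data known. List genes named are among the 4 with the smallest adjusted p per list and comparison (group mean of at least 1 CPM), of which not all are printed. Replicate numbers were taken to pair libraries where deviations correlated above 0.1 in all 6 pairs, which held for the combination against AU-15330 (r from 0.101 to 0.483), against 2 to 4 of 6 pairs in the other comparisons. Alternatives were DESeq2 1.42.0, other scaling, no filter, a replicate block, only the groups compared, a 1.5-fold threshold, single lanes, each library left out and, added after the data were seen, no libraries numbered 1. GENCODE vM21 gave exons and coordinates. Counts of Birc2 and Birc3 and of overlapping genes could be shared.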

Additional observations from a re-analysis of the deposited data

Results flagged for a closer look

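The test of the interaction itself was passed by 4 of the 10 genes, all with a lower value, where 17.9% of all tested genes passed with a higher and 15.8% with a lower value. The interaction was -0.93 for Nfkbia, -0.62 for Nfkbie, -0.37 for Relb and -0.31 for Birc3 on the log2 scale, where a negative value means that the combination lay below the sum of the separate changes. For Nfkbia and Nfkbie the call held without each of the 24 libraries in turn, with adjusted p-values of at most 8.87e-05 and 0.0088, while the call of Relb was lost without any 1 of 14 libraries and that of Birc3 without any 1 of 11. In the 40 sets of 6 values (10 genes in 4 groups), 0 had a library distant from the others by Dixon's criterion, where chance alone would give about 2. The criterion weighs only the most extreme library of a set. It cannot flag libraries that deviate together, such as AU-15330 replicates 2 and 3 for Nfkbia.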

How the results depend on the processing

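Counts of called genes kept within 1.5 times their reported values except as follows. Requiring a change beyond 1.5-fold left 2 higher with cisplatin, 3 higher and 1 lower with AU-15330, 2 higher and 1 lower for the combination against cisplatin, 0 higher and 0 lower against AU-15330, 5 higher and 0 lower against DMSO, and 1 lower for the interaction, and reduced the calls among all genes (1789 against 6689 with cisplatin, 4657 against 9497 with AU-15330, 3803 against 8813, 842 against 5394 and 4683 against 9486 for the combination against cisplatin, AU-15330 and DMSO, and 926 against 4361 for the interaction). With total counts in place of TMM, 1 gene was lower with AU-15330 and 0 with the combination against DMSO. The median of all genes then moved by 0.129 and 0.14, and the share of calls that were higher went from 50.2% to 61.1% with cisplatin and from 53% to 41.7% for the interaction. For the combination against DMSO, 1 gene was lower with the replicate block (Rel, while Tnfaip3 lost its call at an adjusted p of 0.0532), with the first lane or with the second lane, and 0 when only the groups compared were fitted. For the interaction, 2 genes were lower without the low-count filter or with the second lane alone. Leaving out each library gave 0 to 2 lower for the combination against DMSO and 2 to 4 lower for the interaction. The replicate block changed no other call than these and that of Relb. Signs reversed only in values that were not called and lay near 0. These were Nfkb1 with cisplatin (0.0606 with total counts, 0.0426 with the second lane, 0.00372 without the libraries numbered 1, and -0.0423 to 0.0271 with 1 library left out), Birc3 for the combination against cisplatin (-0.0263 with DESeq2 size factors, -0.0261 with no filter, -0.0258 by the DESeq2 test, -0.0206 with only the groups compared, -0.0231 with the first lane, -0.000469 with the second, -0.0349 without the libraries numbered 1, and -0.0299 to 0.0419 with 1 library left out), Nfkb1 for the combination against AU-15330 (-0.0126 with DESeq2 size factors, -0.0341 with no filter, -0.0124 by the DESeq2 test, -0.0108 with the first lane, -0.0437 without the libraries numbered 1, and -0.0170 to 0.0165 with 1 library left out) and Nfkb1 for the interaction (-0.0118 with DESeq2 size factors, -0.0470 with total counts, -0.0101 by the DESeq2 test, -0.0235 with the second lane, -0.0474 without the libraries numbered 1, and -0.0255 to 0.0435 with 1 library left out). The cause of these changes was not tested. At 8.10 CPM or more, each of the 10 genes had counts far above the 3-count floor, which covers counting error only. Low genes of the pathway lists, such as Traf1, Usp18 and Il33, lay far nearer to it in some groups.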
